A study of Homo sapiens with 12 samples.

Results

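The genes described here are 8 members of the serpin family, SERPINB1, SERPINB2, SERPINB6, SERPINB8, SERPINB9, SERPINB10, SERPINA1 and SERPINH1. They were taken by symbol from the 58233 genes of the expression table, which holds 42 rows whose symbol starts with SERPIN, and they were chosen by their RPKM in ATRA-treated against untreated cells, where members moved in opposite directions. All were measured by poly(A) RNA sequencing in HL-60, an established acute myeloid leukaemia cell line with wild-type genotype in the labels. The 4 groups of 3 libraries each were untreated cells, cells given 100 nM ATRA (all-trans retinoic acid, a ligand of retinoic acid receptors), cells given 500 nM palbociclib (which blocks the cell cycle kinases CDK4 and CDK6), and cells given both at these doses, called the combination, with 3 h of treatment. The labels name the first group only as untreated and mention no vehicle. A single cell line was used, and the study describes its data in general as coming from independent experiments and its libraries as triplicates, without saying for these libraries whether a triplicate was 1 experiment or several. The p-values below measure the spread between these libraries, which may be technical.

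Serpins are protease inhibitors that act by being cut. The target enzyme cleaves an exposed loop of the serpin and is then trapped in a covalent complex, so that inhibitor and protease are both used up. Members of clade B lack a classical secretion signal and act mostly inside cells, where in myeloid cells they guard against the serine proteases stored in granules. SERPINA1, alpha-1 antitrypsin, is the secreted elastase inhibitor of plasma. SERPINH1 carries the serpin fold but inhibits no protease, and serves as a collagen chaperone in the endoplasmic reticulum.

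The values are RPKM, read counts scaled by gene length and library size, so that levels can be compared between genes. They were deposited as whole numbers, and a difference below 1 RPKM within a library is lost. The RPKM of a library summed to between 358455 and 390247, and the read depth of each library is unknown from these values. Of the myeloid progenitor markers, MPO stood at 1346 ± 81.8 RPKM in untreated cells (SD, n = 3), while ELANE, neutrophil elastase and a main target of SERPINB1, was listed at 0 or 1 in every library. The T cell and erythroid markers were listed at 0 in every library, and so was the B cell marker MS4A1, while CD79A was listed at 0 in the 6 libraries without ATRA and at 1 in the 6 with ATRA. PECAM1, which endothelial and some myeloid cells carry, stood at 2.0 RPKM in each untreated library and at a mean of 5.0 ± 1.0 in the ATRA group as in the combination group (SD, n = 3 each), and the other endothelial and stromal markers were at 0. The part of these markers in the serpin results was not tested. In bulk samples, fewer cells with a transcript and less of it per cell cannot be told apart.

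On the genome, the members fell into a chromosome 6 group, a chromosome 18 group and single genes (coordinates on GRCh38 from GENCODE v44, all protein coding). SERPINB1 (ENSG00000021355; chromosome 6, 2832332 to 2841959, minus strand, 7 exons in the canonical transcript) lies 45.3 kb from SERPINB9 (ENSG00000170542; 2887270 to 2903309) and 106.2 kb from SERPINB6 (ENSG00000124570; 2948159 to 2972165). SERPINB2 (ENSG00000197632; chromosome 18, 63871692 to 63903888, plus strand, 8 exons) lies 4.1 kb from SERPINB10 (ENSG00000242550; 63907958 to 63936111), which in turn lies 33.9 kb from SERPINB8 (ENSG00000166401; 63970029 to 64019779). SERPINA1 (ENSG00000197249) is on chromosome 14 at 94376747 to 94390693 and SERPINH1 (ENSG00000149257) on chromosome 11 at 75562056 to 75572783. The 3 members that stood lower with ATRA were thus the neighbouring genes on chromosome 18, and the 1 that stood higher was on chromosome 6. GENCODE v44 also has a transcript unit, ENSG00000289724, that shares 547 exonic bases with SERPINB2 and 293 with SERPINB10 on the same strand, and HMSD shares 370 exonic bases with SERPINB8. A lncRNA, ENSG00000283667, also overlaps SERPINB8. HMSD and this lncRNA were listed at 0 in every library, and how reads in shared exons were assigned depends on the annotation the authors used, so the values of these 3 serpins are uncertain to that extent.

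The stretches before the RefSeq starts of SERPINB1, SERPINB2 and SERPINB9 are shown. In that order, these genes had the largest increase, the largest decrease and a listed value of 0 in every library. They are RefSeq sequences (GRCh38.p14) from the 250 bases before the annotated start, without the bases that GENCODE v44 puts in an exon, 5′ to 3′ on the gene's strand, with motif matches in capitals. That of SERPINB2 lies inside the longer span that GENCODE gives this gene.
SERPINB1 (chr6:2841960-2842113, minus strand): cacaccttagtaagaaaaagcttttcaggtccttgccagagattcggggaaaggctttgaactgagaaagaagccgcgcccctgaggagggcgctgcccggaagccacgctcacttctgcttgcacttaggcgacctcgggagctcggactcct
SERPINB2 (chr18:63887455-63887704, plus strand): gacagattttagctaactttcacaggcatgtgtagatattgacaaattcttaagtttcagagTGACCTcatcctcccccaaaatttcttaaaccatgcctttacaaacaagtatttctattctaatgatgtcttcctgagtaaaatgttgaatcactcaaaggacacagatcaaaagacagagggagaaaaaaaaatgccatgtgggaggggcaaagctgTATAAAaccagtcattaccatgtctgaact
SERPINB9 (chr6:2903310-2903559, minus strand): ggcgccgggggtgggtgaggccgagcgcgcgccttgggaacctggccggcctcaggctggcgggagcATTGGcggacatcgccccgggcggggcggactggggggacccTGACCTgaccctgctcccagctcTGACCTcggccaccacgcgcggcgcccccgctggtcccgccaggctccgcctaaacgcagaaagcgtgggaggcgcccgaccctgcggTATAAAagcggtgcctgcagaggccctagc
The motifs searched on both strands over the 250 bases were AGGTCA (a nuclear receptor half-site), TGACTCA (an AP-1 site), GAGGAAG (an ETS-type core), TATAAA and CCAAT. The window of SERPINB1 held none of them and had a GC content of 63.6% with 21 CpG dinucleotides, against medians of 58% and 11 over 35116 promoters. That of SERPINB2 had a GC content of 37.2% and no CpG (0), with TATAAA 30 bases and AGGTCA, on the reverse strand, 188 bases upstream of the start. SERPINB9 held AGGTCA at 141 and 118 bases upstream, TATAAA at 30 and CCAAT at 183, although its transcript was listed at 0 in every library. In the window of SERPINB8, which lies in GENCODE exons and is not printed, TATAAA occurred at 142 and 140 bases upstream, overlapping on opposite strands, CCAAT at 157 and TGACTCA at 28. Over all promoters of that length, AGGTCA was found in 12.1%, TGACTCA in 4.2%, GAGGAAG in 11.2%, TATAAA in 10.7% and CCAAT in 32%. Of the 8 members 7 had an entry, and SERPINB10 had none.

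In untreated cells SERPINB8 was the most abundant of the 8 serpin transcripts. It encodes an inhibitor of furin-like proteases and was listed at 28, 25 and 35 RPKM in untreated replicates 1, 2 and 3. SERPINB10 (bomapin), found mainly in haematopoietic cells, followed at 14, 11 and 19 RPKM. SERPINB1, an inhibitor of neutrophil elastase, cathepsin G and proteinase 3, stood at 15, 12 and 14 RPKM. The ranges of SERPINB10, SERPINB1 and SERPINB2 overlapped, so their order is not resolved, whereas each library of SERPINB8 was above every library of these genes. SERPINB2, the plasminogen activator inhibitor made by monocytes and macrophages, was at 8, 9 and 13 RPKM and SERPINH1 at 3, 4 and 5. SERPINB6, which inhibits cathepsin G, was listed at 1, 0 and 0 RPKM in these libraries, SERPINA1 at 1, 0 and 1, and SERPINB9, the granzyme B inhibitor of cytotoxic cells, at 0. Of the 34 other SERPIN rows, 9 are called pseudogenes in the table, 32 were listed at 0 in all 12 libraries, and the other 2 never exceeded 1 RPKM.

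**Figure D1:**
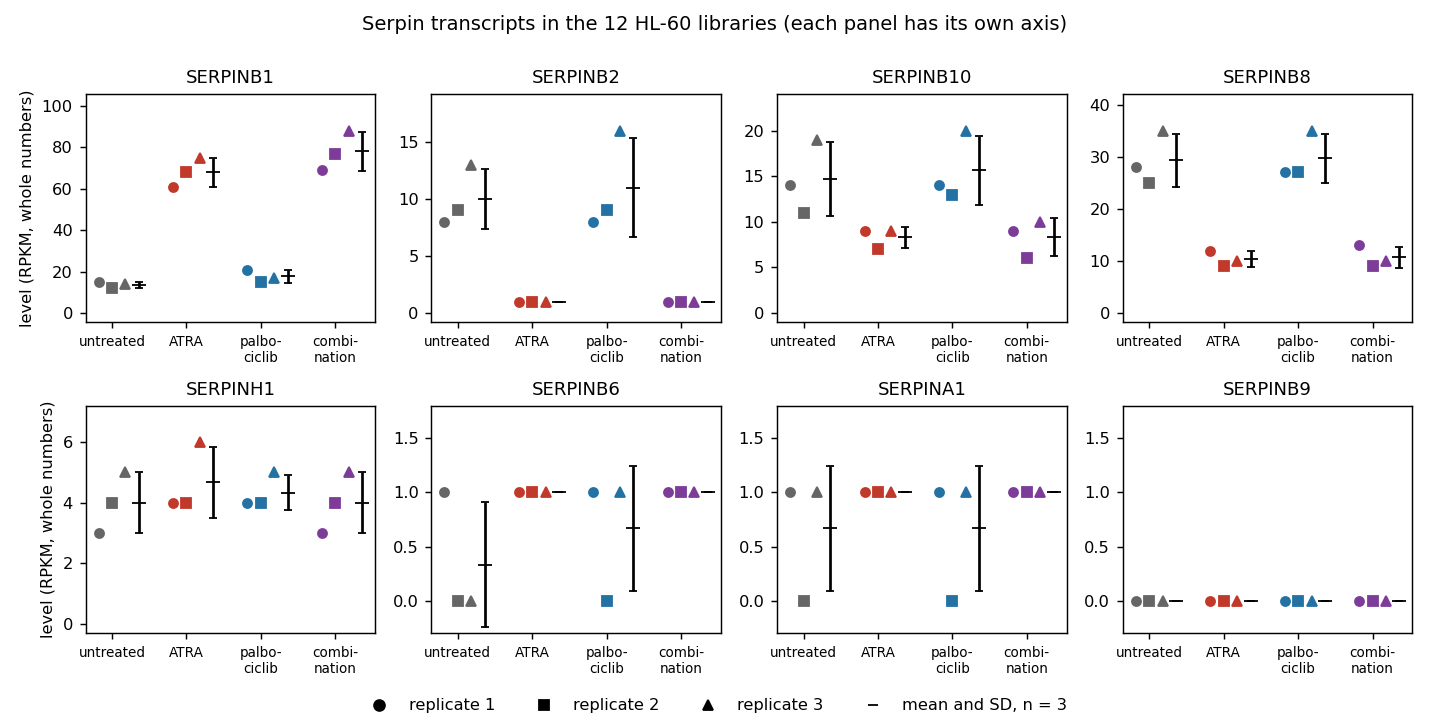
Level of each of the 8 serpins in RPKM (vertical axes, a separate scale per panel) in the 4 groups (horizontal axes), with a symbol per replicate and the mean ± SD (n = 3) beside it. SERPINB1 sits between 61 and 88 RPKM in the 6 libraries with ATRA and between 12 and 21 in the 6 without, and SERPINB2 is at 1 RPKM in all 6 libraries with ATRA.

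With ATRA alone SERPINB1 was higher and SERPINB2, SERPINB8 and SERPINB10 were lower than in untreated cells. This contrast chose the members, so it is described without a test. SERPINB1 was listed at 61, 68 and 75 RPKM with ATRA, a mean of 68 ± 7.0 against 13.7 ± 1.53 (SD, n = 3 each), or 4.98 times the untreated mean. SERPINB2 was listed at 1 RPKM in each ATRA library against 10.0 ± 2.65 (SD, n = 3). The ratio of its means is 10 but is poorly fixed by whole numbers, and if both means could be off by 0.5 it would lie between 6.33 and 21. SERPINB8 was at 12, 9 and 10 RPKM, with means of 10.3 ± 1.53 and 29.3 ± 5.13 (SD, n = 3 each), so that the untreated mean was 2.84 times that with ATRA. SERPINB10 was at 9, 7 and 9 RPKM, with means of 8.33 ± 1.15 and 14.7 ± 4.04 (SD, n = 3 each), a ratio of 1.76. The ATRA and untreated libraries of these 4 genes did not overlap. Among the 7820 genes that reached 5 RPKM in at least 3 libraries, 12.4% were higher and 17.3% lower with ATRA without overlap. On the log2(RPKM + 0.1) scale the differences were 2.31 for SERPINB1, -3.17 for SERPINB2, -1.49 for SERPINB8 and -0.78 for SERPINB10.

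The other 4 members showed no such separation. SERPINH1 was at 4, 4 and 6 RPKM with ATRA, within a step or so of the untreated libraries, a difference of 0.22 on the log2 scale. SERPINB6 and SERPINA1 were listed at 1 RPKM in each ATRA library and at 0 or 1 without the drug, where a change of 1 step cannot be read as a difference. SERPINB9 was listed at 0 throughout, and no fold is given for these 3 genes. Opposite movement with ATRA thus held for 4 of the 8 members, 1 upward and 3 downward.

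The make-up of the summed serpin transcripts differed accordingly. SERPINB1 made up 19.1% ± 2.72 of the summed RPKM of the 8 members in untreated cells and 72.0% ± 3.17 with ATRA (SD, n = 3 each). The 3 genes on chromosome 18 summed to 54.0 ± 11.5 and 19.7 ± 2.52 RPKM (SD, n = 3 each). With ATRA the order of levels became SERPINB1, SERPINB8, SERPINB10, SERPINH1 and SERPINB2, in which SERPINB8 (9 to 12 RPKM) and SERPINB10 (7 to 9) touch at 9 RPKM. The combination against untreated cells was also described without a test, since the untreated libraries chose the members. Its log2 differences were 2.50 for SERPINB1, -3.17 for SERPINB2, -1.45 for SERPINB8 and -0.80 for SERPINB10, again without overlap, where 15.3% of all genes were higher and 20.6% lower without overlap.

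The combination against palbociclib alone asks what ATRA did in cells that also had palbociclib. The means compared share no library with ATRA against untreated cells, but the fit takes its spread from all 12 libraries, these included. All 12 libraries were known when the members were picked, however, so the tests set each difference against the spread between libraries and are not independent evidence that members move with ATRA. It was tested with limma on log2(RPKM + 0.1) over all 12 libraries, with p-values adjusted over the 7820 genes and a threshold of 0.001. SERPINB1 was listed at 21, 15 and 17 RPKM with palbociclib and at 69, 77 and 88 with the combination. Every combination library was above every palbociclib library, which 8.26% of all genes also showed, while 9.86% showed the reverse. The means were 17.7 ± 3.06 and 78 ± 9.54 RPKM (SD, n = 3 each), with a ratio of 4.42. SERPINB1 rose by 2.14 on the log2 scale (SE 0.14, limma adjusted p = 2.95e-06).

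SERPINB2, whose product inhibits the urokinase-type plasminogen activator, moved the other way. It was at 8, 9 and 16 RPKM with palbociclib and at 1 in each combination library. The groups lay far apart, although palbociclib replicate 3 was well above the other two. Its difference on the log2 scale was -3.27, and the ratio of means of 11 would lie between 7 and 23 with an uncertainty of 0.5 RPKM in both. SERPINB2 passed the filter on low values only through the libraries without ATRA, so a gene with these values had to differ, and its difference is given without a test.

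SERPINB8 and SERPINB10, the other 2 chromosome 18 genes, were also lower with the combination. SERPINB8 was at 27, 27 and 35 RPKM with palbociclib and 13, 9 and 10 with the combination, and it differed by -1.47 on the log2 scale (SE 0.17, limma adjusted p = 0.000228). The groups did not overlap, and the difference stayed between -1.62 and -1.35 with any library left out. The call was lost without palbociclib replicate 1, 2 or 3 or combination replicate 2 or 3, with adjusted p-values of 0.00121 to 0.00216, and with a lower filter of 1 RPKM (limma adjusted p = 0.00118) or none (0.00124). It was kept without any one of the other 7 libraries. SERPINB10 was at 14, 13 and 20 RPKM with palbociclib and 9, 6 and 10 with the combination, again without overlap. Its difference of -0.91 on the log2 scale (SE 0.24, limma adjusted p = 0.0313) did not pass.

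Same-numbered libraries of these 2 groups deviated together, and once the number entered the model as a replicate block SERPINB10 passed as well (limma adjusted p = 0.000448). The SE of its change fell to 0.11 in that fit. The block spanned all 12 libraries, and the numbers of the untreated ones were not shown to be pairs. SERPINB1 was thus called higher and SERPINB8 lower without the block, and SERPINB10 also with it, apart from SERPINB2. Over the whole table the calls made up 2.11% of genes upward and 0.997% downward, and under the block 3.58% and 2.57%. The members were chosen with their values known, so these calls describe them and are no evidence about the family. When the model held just these 6 libraries, neither SERPINB1 nor SERPINB8 passed (limma adjusted p = 0.00285 and 0.0122).

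SERPINH1 was listed at 4, 4 and 5 RPKM with palbociclib and 3, 4 and 5 with the combination. These ranges overlap, and the log2 fold change of -0.13 had a 95% interval from -0.65 to 0.38 (adjusted p = 0.822 from limma). SERPINB6 was at 1, 0 and 1 RPKM with palbociclib and 1 in each combination library, and SERPINA1 had the same values, so neither reached the filter.

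**Figure D2:**
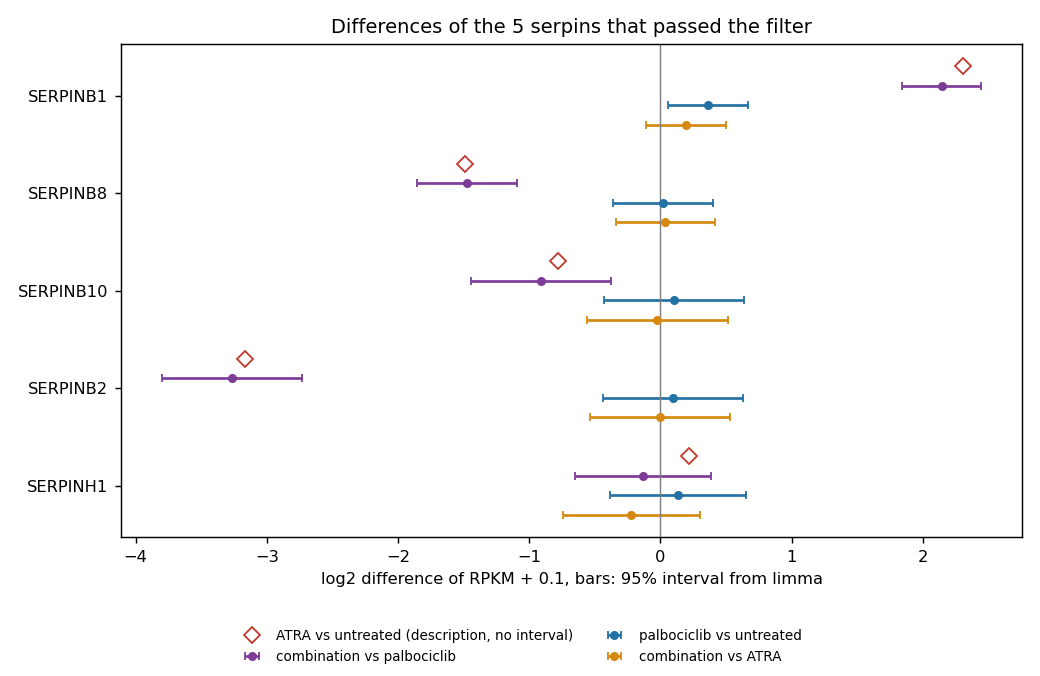
Log2 differences of RPKM + 0.1 (horizontal axis) for the 5 serpins that passed the filter on low values, for 3 fitted comparisons with 95% intervals from limma (filled circles and bars) and for ATRA against untreated cells without an interval (open diamonds). The combination against palbociclib lies at 2.14 for SERPINB1 and at -3.27 for SERPINB2, while the intervals of the combination against ATRA include 0 for all 5 genes. SERPINB2 passed the filter only through the libraries without ATRA, so its bar at -3.27 is no test. With ATRA its value was 1 RPKM in every library, so its bar for the combination against ATRA measures no spread between those libraries.

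Between palbociclib and untreated cells none of the 5 tested members was called by limma (0 higher, 0 lower), and 1 had an unadjusted p-value under 0.05. Of all genes, 0.0128% were called higher and 0.486% lower. The block raised these shares to 0.0639% and 0.997% and called no member either. All 5 members overlapped between these groups, while 5.74% of all genes were higher and 9.48% lower without overlap. The untreated libraries also took part in the contrast that chose the members. SERPINB2 read 8, 9 and 16 RPKM with palbociclib beside 8, 9 and 13 without, a log2 fold change of 0.10 (95% interval -0.43 to 0.63, adjusted p = 0.874 from limma). The fit pools the spread of all 4 groups, and SERPINB2 had an SD of 0 in the ATRA and combination groups. In the untreated and palbociclib groups its SDs were 2.65 and 4.36 RPKM, so this interval is narrower than those libraries alone would give. SERPINB8 had a log2 fold change of 0.02 (95% interval -0.36 to 0.40), SERPINB10 of 0.10 (-0.43 to 0.64) and SERPINH1 of 0.13 (-0.38 to 0.65). These intervals are no detection limits, and larger changes could also miss the threshold.

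SERPINB1 was the member with the unadjusted p-value under 0.05. It was higher with palbociclib than without it in each pair of libraries with the same number, by ratios of 1.4, 1.25 and 1.21, with a log2 fold change of 0.36 (95% interval 0.06 to 0.66, limma adjusted p = 0.193), which did not pass. The groups overlapped at 15 RPKM. Adding palbociclib to ATRA gave ratios of 1.13, 1.13 and 1.17 for SERPINB1 in the same-numbered pairs, from 61, 68 and 75 to 69, 77 and 88 RPKM. That log2 fold change was 0.20 (95% interval -0.11 to 0.50, adjusted p = 1 from limma). With the replicate block over all 12 libraries the interval was -0.10 to 0.50. Same-numbered libraries of the combination and ATRA deviated together, and no paired fit of these 2 groups alone was run. The intervals therefore do not measure how alike the ratios of 1.13, 1.13 and 1.17 were. Among the 7820 genes, 5.18% were higher with palbociclib in all 6 same-numbered pairs. The numbers of untreated and palbociclib libraries were not shown to be pairs.

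The other tested members overlapped between the combination and ATRA alone. SERPINB2 was at 1 RPKM in all 6 libraries, where a difference of less than 1 step is hidden. SERPINB8 was at 13, 9 and 10 against 12, 9 and 10 RPKM, a log2 fold change of 0.04 (95% interval -0.34 to 0.42), and SERPINB10 at 9, 6 and 10 against 9, 7 and 9, a log2 fold change of -0.02 (-0.56 to 0.51). SERPINH1 was at 3, 4 and 5 against 4, 4 and 6 RPKM, a log2 fold change of -0.22 (-0.74 to 0.30). No member was called by limma (0 higher, 0 lower) and 0 had an unadjusted p-value under 0.05, with or without the block, while 0% of all genes were called in either direction. Without overlap, 0.87% of all genes were higher and 2.52% lower, and none of the 5 members was. The ATRA libraries here also took part in choosing the members.

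The replicates differed from each other in a way that several members shared. In the groups without ATRA, replicate 3 was the highest for SERPINB2, SERPINB8 and SERPINB10 alike, in untreated and in palbociclib cells, and for SERPINH1 it was the highest in all 4 groups. Over all 7820 genes, 6.07% had replicate 3 highest in both groups without ATRA, and 2.48% in all 4 groups. SERPINH1 passed the filter only through its replicate 3 libraries, at 5 or 6 RPKM against 3 or 4 in replicates 1 and 2. Its pattern thus followed from the filter and cannot be set against that share. For SERPINB1 replicate 3 was highest in the 2 groups with ATRA, and replicate 1 in the 2 without. Within a replicate number, the ratio of untreated to ATRA for SERPINB2 was 8, 9 and 13 in replicates 1, 2 and 3, and the ratio of palbociclib to the combination was 8, 9 and 16. For SERPINB8 these ratios were 2.33, 2.78 and 3.5 and then 2.08, 3.0 and 3.5. What the replicate numbers share is not stated in the sources, and the part of it in these values was not tested.

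Most protein-coding genes beside the serpins were listed at 0, stayed below the filter or were not called. Of the 9 other protein-coding genes within 500 kb of SERPINB2, 8 were listed at 0 in every library, among them SERPINB7, SERPINB5 and SERPINB13, and 1 passed the filter. That gene, VPS4B, 449.2 kb away, stood at means of 28.3, 29.3, 28.3 and 30.0 RPKM in untreated, ATRA, palbociclib and combination cells. Around SERPINB1, WRNIP1, 45.4 kb away, stood at 16.0, 16.7, 16.0 and 16.7 RPKM in the same order (log2 fold change between combination and palbociclib 0.06, adjusted p = 0.636 from limma). RIPK1, 221.9 kb away and a kinase of cell death and inflammatory signalling, stood at 5.0 RPKM without ATRA and 6.0 with it (log2 fold change 0.26, adjusted p = 0.0142 from limma) and was not called. All libraries of a group had the same whole number for RIPK1, so this p-value measures no spread between them. A change of 1 rounding step cannot be read as a difference. Farther from the members that moved, ASB2, a ubiquitin ligase subunit 400.0 kb from the barely detected SERPINA1, had means of 1.0, 13.7, 1.0 and 16.0 RPKM in that order. It passed the filter only through the libraries with ATRA, so no test is given.

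**Figure D3:**
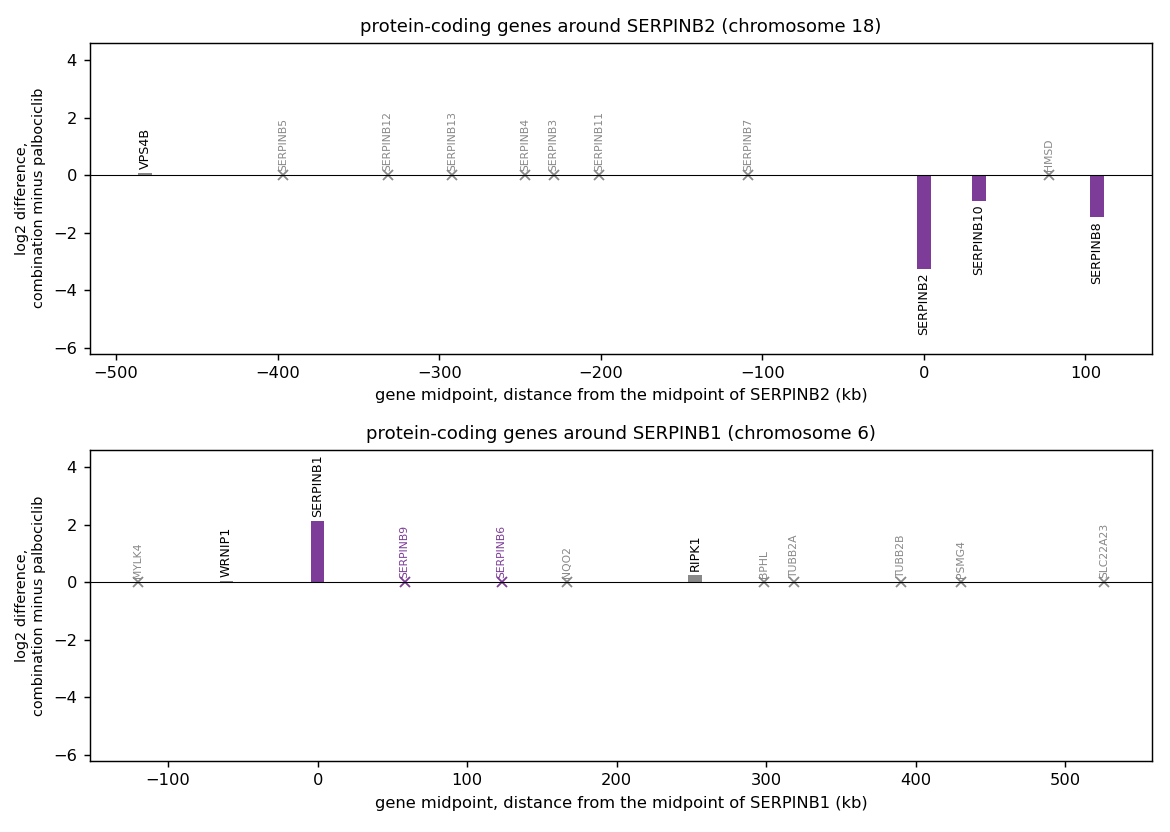
Log2 difference between the combination and palbociclib (vertical axes) for protein-coding genes by the distance of their midpoints in kb from SERPINB2 and from SERPINB1 (horizontal axes). Bars are genes that passed the filter, with serpins of the set in purple, and crosses are genes below it. SERPINB2, SERPINB10 and SERPINB8 lie below 0, at -3.27, -0.91 and -1.47, while VPS4B lies at 0.08.

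Over the 12 libraries, the genes that followed SERPINB1 most closely included MAPKAPK2 (Pearson r = 0.995 on log2(RPKM + 0.1)) and CEBPE (r = 0.994). CEBPE, a transcription factor of late granulocyte development, had means of 34.3, 117, 44.7 and 132 RPKM in untreated, ATRA, palbociclib and combination cells. SERPINB2 was followed by PARP8 (r = 0.994), DUSP3 (r = 0.991) and WDR3 (r = 0.989), and SERPINB8 by PAK1IP1 (r = 0.988), WDR3 (r = 0.985) and DUSP3 (r = 0.981). The genes closest to SERPINB10 were UTP14A (r = 0.971), HGH1 (r = 0.965) and IRF8 (r = 0.959), the last a transcription factor of monocyte development with means of 60.7, 46.0, 60.3 and 46.3 RPKM. For SERPINH1 the closest were AC242843.1 (r = 0.864), CHTF8 (r = 0.853) and PREB (r = 0.850). Within the set, SERPINB2 and SERPINB8 had r = 0.980 and SERPINB1 and SERPINB2 r = -0.971. The 12 points fall into libraries with and without ATRA, so these values mostly describe that split, and no p is given.

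Among the proteases that serpins could meet in these cells, 2 lysosomal ones rose and the granule proteases PRTN3 and CTSG did not pass. The list of 34 genes, mostly serine and cysteine proteases, also holds the aspartic protease CTSD and the inactive protease homologue AZU1. Of the 34, 14 were tested, CTSD and AZU1 among them. By limma 2 were higher and 0 lower with the combination than with palbociclib, or 3 and 0 with the replicate block. Over all genes 2.11% were called upward and 0.997% downward, and 3.58% and 2.57% under the block. On the log2 scale the median of the 14 was 0.26, against 0 over all genes. The 2 were CTSZ, the lysosomal cathepsin Z, from 8.67 ± 0.577 to 15.3 ± 1.15 RPKM (SD, n = 3 each, log2 fold change 0.82, adjusted p = 0.00051 from limma), and CTSA, a lysosomal carboxypeptidase, from 9.67 ± 0.577 to 14.0 in each library (0.53, adjusted p = 0.000133). CTSA had an SD of 0 in the untreated and combination groups. Whole numbers hide part of its spread, so its p-value may be too small. CTSB, the lysosomal cathepsin B, at 15 ± 1.0 and 23.7 ± 2.52 RPKM, passed under the block alone (limma adjusted p = 1.34e-05, against 0.00117 without it). Of those that SERPINB1 inhibits, PRTN3, proteinase 3, stood at 228 ± 30.6 and 271 ± 39.0 RPKM (SD, n = 3 each, adjusted p = 0.343 from limma), and CTSG, cathepsin G, at 24.7 ± 4.04 and 16.3 ± 0.577 (adjusted p = 0.0167).

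In the plasminogen system, where SERPINB2 is the inhibitor, the urokinase receptor gene PLAUR rose from 16.7 ± 0.577 to 24.0 ± 1.0 RPKM (SD, n = 3 each, log2 fold change 0.52, adjusted p = 0.000787 from limma). PLAU, urokinase itself, was at 7.67 ± 0.577 and 10.3 ± 1.15 RPKM (adjusted p = 0.0491), which did not pass. The tissue activator PLAT was listed at 0 in every library. PLAUR was the 1 gene called higher of 7 in this list that passed the filter, against the 2.11% of all genes, and SERPINB2, described above without a test, is among the 7. The median was 0.07.

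Inhibitors of other families did not pass in either direction by limma (0 higher, 0 lower of 7 tested, median log2 fold change -0.06). Over all genes 2.11% were called higher and 0.997% lower, and 3.58% and 2.57% with the block. At such shares, 0 calls in the short lists given here are no result about their genes. SLPI, a secreted inhibitor of elastase, stood at 313 ± 17.0 RPKM with palbociclib and 295 ± 21.0 with the combination (SD, n = 3 each). For the partners of SERPINH1, 0 of 9 tested genes of collagen folding and modification passed (median -0.02), or 1 lower with the block, COLGALT1, a collagen galactosyltransferase, at 38 ± 1.0 and 31.0 ± 1.0 RPKM (adjusted p = 0.000487 with the block). Of the 16 genes of the heat shock response, to which SERPINH1 also belongs, 0 passed, with a median of -0.10.

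**Figure D4:**
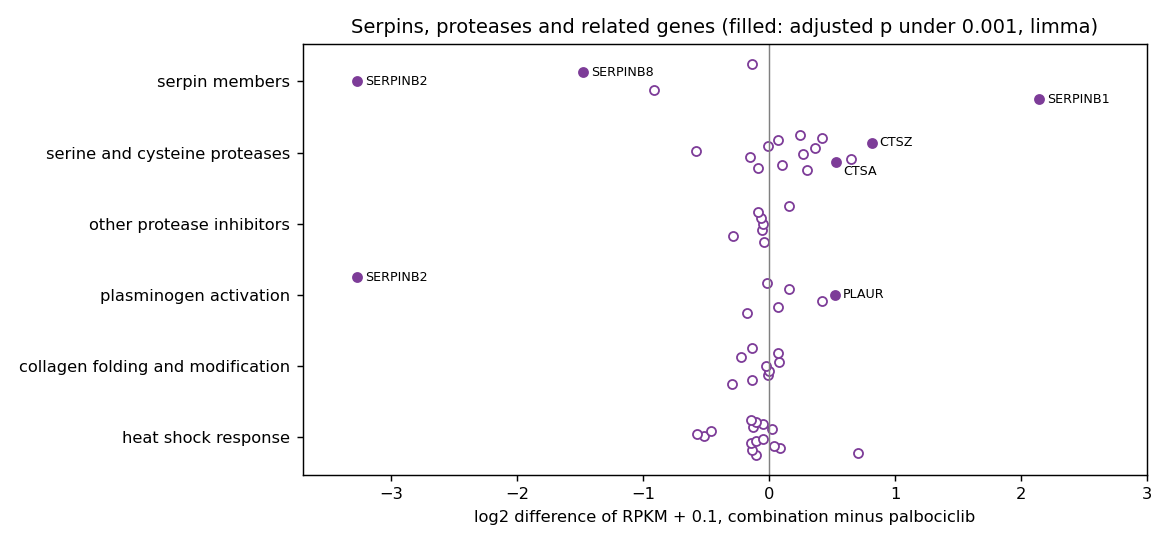
Log2 difference of RPKM + 0.1 between the combination and palbociclib (horizontal axis) for the tested genes of 6 lists (vertical axis), a circle per gene, filled where the adjusted p from limma was under 0.001. SERPINB1, at 2.14, and SERPINB2, SERPINB8 and SERPINB10, at -3.27, -1.47 and -0.91, lie outside the range of the genes that are no serpins. SERPINB2 is itself in the plasminogen list and filled although its filter makes that no test.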

How the data were processed

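The 12 libraries were grouped by their labels. Per the study's methods, alignment by the authors used HISAT2 against hg38, and htseq-count with default options gave gene counts (versions are not given in the sources used here). The deposited score values, 1 column per library for 58233 genes, are RPKM in whole numbers, as rounded by the authors. Strand handling is not given in the sources used here. The read counts behind the study's voom tests were not analysed here, so limma 3.58.1 in R 4.3.3 was fitted to log2(RPKM + 0.1), with 1 mean per group over 12 libraries and eBayes with a variance trend, for 7820 genes with at least 5 RPKM in at least 3 libraries. The pseudocount understates the change of low genes. Benjamini-Hochberg adjusted p-values under 0.001 were called. Alternatives were other filters, a pseudocount of 1, a threshold of 0.05, fits of 6 libraries, a replicate block, no variance trend, median scaling and each library left out.

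The members, lists and tests were chosen with earlier results of these data known. Named genes are the members, genes of the lists, protein-coding neighbours within 500 kb, and the 3 genes with the highest Pearson r per member. Some items that these rules name are not reported here. ATRA and the combination against untreated cells were described without a test, and departure from additivity was left untested, because the choice of members used that contrast. Same-numbered libraries deviated together across genes between the combination and palbociclib (r of 0.438 to 0.702) and between the combination and ATRA (0.782 to 0.908), which pairs them, but not in every pair between palbociclib and untreated cells (0.0957 to 0.351). On simulated rounded data for the combination against palbociclib, with 200 of 7820 genes changed, the script recovered 7 at a log2 change of 0.5, 128 at 1 and 190 at 2, with 3, 0 and 0 false calls. Tables and plots were made in Python 3.11.15. No library depth could be read from the values, so no counting interval is given.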

Additional observations from a re-analysis of the deposited data

How the results depend on the processing

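Between the combination and palbociclib, the members called (1 higher, 2 lower) became 0 and 0 in fits of the 6 libraries and 1 and 3 at an adjusted p under 0.05 or with the replicate block. These counts hold SERPINB2, which had to differ once it passed the filter. The lower count was 1 when the filter was set to 1 RPKM or dropped, and leaving out 1 library gave 1 higher and 1 to 2 lower. Over the alternatives the log2 fold change was 2.03 to 2.27 for SERPINB1 (limma adjusted p 1.38e-07 to 0.00285), -3.46 to -2.53 for SERPINB2, -1.62 to -1.35 for SERPINB8 (6.31e-05 to 0.0122) and -1.06 to -0.69 for SERPINB10 (0.000448 to 0.135). No member was called in the other 2 comparisons under any of these alternatives, and the block changed no member's call but that of SERPINB10.

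Of all genes, 165 were called higher and 78 lower there, against 458 and 519 at an adjusted p under 0.05, 20 and 1 with 6 libraries, 280 and 201 with the replicate block, and 87 to 165 and 29 to 75 with 1 library left out. A filter of 1 RPKM gave 139 lower and no filter 135. Between palbociclib and untreated cells, 1 higher and 38 lower became 29 and 86 with either filter, 71 and 247 at 0.05, 3 and 1 with 6 libraries, 5 and 78 with the block, 0 and 13 with median scaling, and 0 to 1 and 0 to 29 with 1 library left out. The higher count was 0 with a pseudocount of 1 and 3 without the trend. Between the combination and ATRA, 0 and 0 became 11 and 9 with either filter, and the lower count 9 at 0.05 and 1 without the trend. The cause of these shifts was not tested.

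Small differences changed sign when 1 library was left out. These were SERPINH1 between the combination and palbociclib (-0.31 to 0.052), SERPINB2 (-0.20 to 0.30), SERPINB10 (-0.084 to 0.31), SERPINB8 (-0.10 to 0.15) and SERPINH1 (-0.052 to 0.31) between palbociclib and untreated cells, SERPINB10 (-0.17 to 0.19) and SERPINB8 (-0.11 to 0.15) between the combination and ATRA, and SERPINH1 between the combination and untreated cells (-0.19 to 0.19). Median scaling gave 0.015 for SERPINB10 between the combination and ATRA and 0.075 for SERPINH1 between the combination and untreated cells. With a pseudocount of 1, SERPINB2 was at -2.43 in both comparisons with untreated cells. Whole-number RPKM limit what can be seen of SERPINB2 with ATRA, SERPINB6, SERPINA1 and SERPINB9.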
